A study of Polypedilum vanderplanki with 84 samples.

Results

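The genes g16188 to g16197 are 10 consecutively numbered gene models at the end of Block 1 of ARId1, the Anhydrobiosis Related Island on Chromosome 4 of the sleeping chironomid *Polypedilum vanderplanki*. They were taken by identifier, as every gene of the expression table in that range, and make up 10 of its 18248 genes. The table pairs none of these identifiers with a gene name, so no name or role is given to a single member here. A TPM value (abundance per length, on a scale with the same total in each library) was deposited for each transcript, and a gene's level is the sum over its transcripts. TPM is corrected for transcript length, so levels may be compared between genes. All 10 genes were above 0 in every library, and all 10 passed the filter of a mean above 1 TPM over all libraries, which left 9450 genes for testing.

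Larvae of this midge survive almost complete loss of body water, a state called anhydrobiosis, and Pv11 is a cell line from the same species that survives drying once it has been kept in trehalose. Trehalose is a sugar of 2 glucose units that takes the place of water around proteins and membranes and forms a glass as cells dry. ARId1 carries tandemly duplicated genes of 2 families. LEA (late embryogenesis abundant) proteins are hydrophilic, largely unfolded in water, and known from plant seeds and desiccation-tolerant animals to limit aggregation of proteins during drying. LIL (Lea-island-located) proteins are the second family of this region and have predicted membrane-spanning segments.

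RNA of Pv11 cells was measured in 84 libraries of 28 groups, with 3 replicates per group. In the stress experiment (54 libraries, 18 groups), cells received mannitol or trehalose at 600 mM, NaCl at 0.5% or paraquat (a generator of reactive oxygen species) at 20 µM. Other cells had a heat shock of 15 min at 42 °C. All were collected 1, 3 and 24 h later beside untreated Control cells of the same hour. The NaCl value is that of the study's supplementary methods, and the study's main text prints another concentration. In the time course (30 libraries, 10 groups), which came from an earlier study, cells were preconditioned in trehalose (PreCondTre) for 0, 12, 24, 36 and 48 h, dried, and collected 0, 3, 12, 24 and 72 h after rehydration. All groups are the same cultured line with no genetic change, so no animal or tissue is represented, and PreCondTre 0 h is the starting group of the second experiment.

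Each comparison was tested with limma on log2(gene TPM + 1), and a gene was called where the Benjamini-Hochberg adjusted p over all 9450 genes was under 0.05 and the fold change was above 2. Rose and fell are used only for such calls. Where members are also counted by p alone, the share of all genes at that p was not counted. Changes are differences on the log2(TPM + 1) scale with their standard error (SE), and the 3 values of a group are given in the order of replicates 1, 2 and 3. By the study's account, Block 1 was drawn from responses that included the mannitol contrasts at 3 and 24 h, the NaCl contrasts at 1, 3 and 24 h, the trehalose contrast at 24 h and the first 12 h of PreCondTre, all from these same libraries. Counts of members called in those contrasts describe the Block and are not independent support for it. Heat, paraquat, mannitol at 1 h, trehalose at 1 and 3 h and the later time course are not named in that account, which gives its contrasts partly as examples. The study's figure of the Blocks also lists heat and paraquat at 1 and 24 h, trehalose at 1 and 3 h and the later time-course steps. Whether these helped to draw Block 1 is not known, so their counts are not taken as independent either. TPM carries no further scaling between libraries, and a median ratio scaling (each library divided by its typical ratio to the average library) was run beside it.

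Replicates were close for most of the genes and spread widely for a few. The median coefficient of variation over the 28 groups was 4.07% for g16190, 4.43% for g16189, 6.41% for g16194, 7.20% for g16193 and 7.76% for g16188. It was 10.3% for g16196 and 11.8% for g16191, and 21.9% for g16197, 23.1% for g16195 and 26.3% for g16192. In Control 3 h, g16192 measured 11.2, 87.09 and 30.52 TPM, g16195 6.71, 39.97 and 13.99 TPM, and g16197 18.66, 94.23 and 30.57 TPM. Replicate 2 was the highest and replicate 1 the lowest for all 3 genes. The genes g16191 and g16196 went the same way, with replicate 2 at log2 distances of 0.94 and 0.93 from the other replicates and replicate 1 at -0.63 for both. The genes g16188, g16193 and g16194 went the other way, at -0.15, -0.26 and -0.45 in replicate 2 and 0.27, 0.35 and 0.27 in replicate 1. For g16189 and g16190 these distances were 0.16 and 0.03, and 0.02 and 0.11. In 20 of the 28 groups 1 library was the highest for g16192, g16195 and g16197 at once, and in 21 groups 1 library was the lowest for all 3. In 14 of those 20 groups that highest library also had the most genes, of all tested, lying above its other replicates. The part of these libraries in the values of the genes was not tested.

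**Figure D1:**
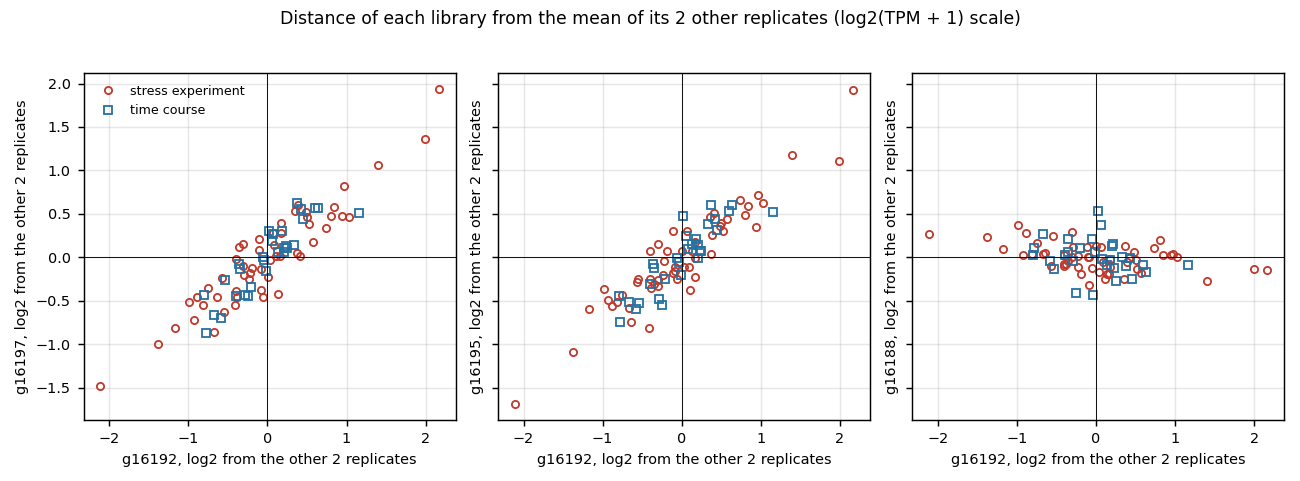
Each point is 1 of 84 libraries. The x axis is the log2 distance of g16192 from the mean of the other 2 replicates of its group, and the y axes are the same distance for g16197, g16195 and g16188. Control 3 h replicate 2 lies at 2.17 for g16192, 1.94 for g16197 and 1.93 for g16195, and replicate 1 at -2.11, -1.48 and -1.68.

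Over the whole table, the median library had 1.13% of tested genes more than 2-fold away from its other replicates, and 10 libraries exceeded 5%. Among these were Control 3 h replicate 1, with 14.1% of genes below, and replicate 2, with 14.7% above. Where leaving out 1 of the 10 changed a call of a member, the value without it is given beside the call. Under median ratio scaling the median change over all genes went from -0.75 to 0.00 at NaCl 3 h and moved by over 0.1 in other comparisons too. Before scaling it was -0.62 at Trehalose 3 h, -0.43 at Mannitol 3 h, -0.34 at Mannitol 1 h, -0.33 at NaCl 1 h, -0.23 at Trehalose 1 h, 0.27 at Heat 24 h and 0.29 at Paraquat 24 h. In the time course it was 0.29 at the step to Rehydration 12 h and 0.27 at those to PreCondTre 48 h and Rehydration 3 h. Calls of members that this scaling added or removed are given beside the result.

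The genes covered a wide range of levels. In Control 24 h the highest were g16193 (5637.97, 5829.45 and 5710.5 TPM) and g16190 (1832.73, 1732.75 and 1691.64 TPM). The lowest was g16192, with 8.98, 11.21 and 11.43 TPM. Between them lay g16189 (mean 602 TPM), g16194 (432), g16188 (65.2), g16191 (39.9), g16196 (33.7), g16197 (15.7) and g16195 (12.5).

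Together the 10 genes took 0.869% of all TPM in Control 24 h. Their share was 2.38 ± 0.0873% (SD, n = 3) at NaCl 24 h, 2.23 ± 0.0548% at Trehalose 24 h and 1.25 ± 0.0646% at Mannitol 24 h. In the time course it was 1.51 ± 0.267% at PreCondTre 0 h, 3.21 ± 0.00526% at PreCondTre 24 h, 0.595% at Rehydration 12 h and 1.63% at Rehydration 72 h. The gene that made up most of the sum differed between groups. In Control 24 h g16193 held 65.9% of it and g16190 20.2%, at Trehalose 24 h g16190 held 45.9%, and at PreCondTre 12 h 51.0%. At PreCondTre 48 h g16193 held 17.7% and at Rehydration 72 h 52.3%.

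**Figure D2:**
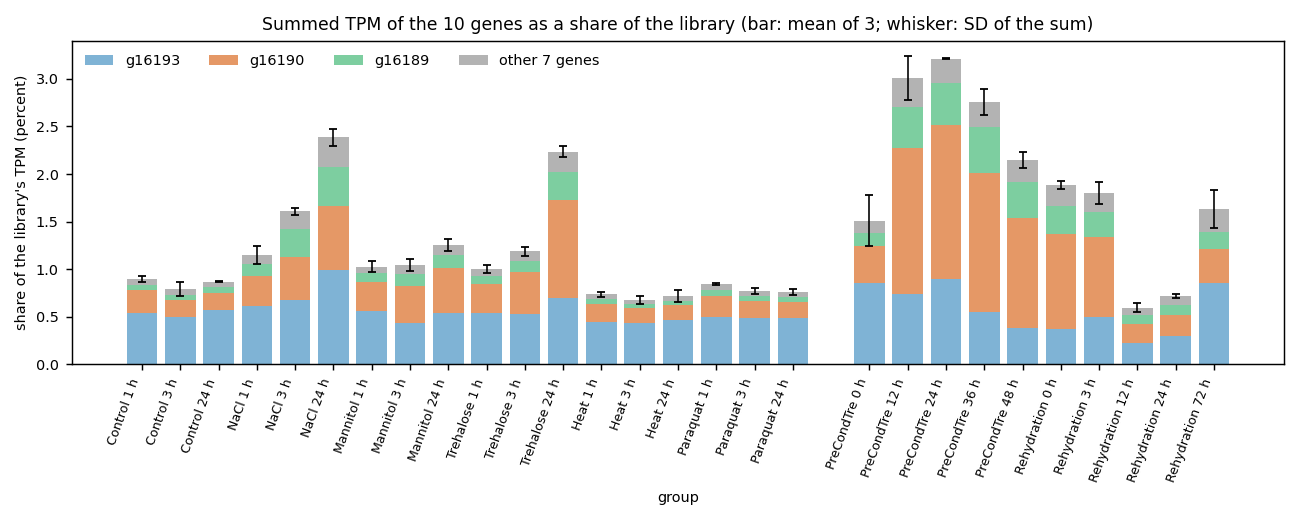
Bars give the mean share of all TPM in a library (percent, y axis) taken by the 10 genes in each of the 28 groups, split into g16193, g16190, g16189 and the other 7 genes, and whiskers are the SD of the sum over 3 libraries. The sum runs from 0.595% at Rehydration 12 h to 3.21% at PreCondTre 24 h.

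In the order of the 18 stress groups, NaCl 24 h had the highest mean for 8 genes and Trehalose 24 h for g16190 and g16197. The libraries of the highest and second group overlapped for g16192, g16195 and g16196 and did not overlap for the other 7 genes. Groups were ranked by these same values, and overlap in such an order was not counted over all genes. The mean of the highest group was 22.6 times that of the lowest for g16196, 16.5 times for g16197 and 15.3 times for g16195, against 3.96 times for g16194 and 2.28 times for g16193. Of the 17 pairs of neighbours in that order, those whose libraries did not overlap numbered 8 for g16190, 7 for g16189, 4 each for g16188 and g16191, and from 0 to 2 for the other 6 genes, so most neighbouring groups were not separated beyond their spread. Heat 3 h had the lowest mean for 6 of the genes, among them g16188 (41.44, 44.89 and 56.25 TPM) and g16189 (416.24, 383.02 and 411.4 TPM).

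**Figure D3:**
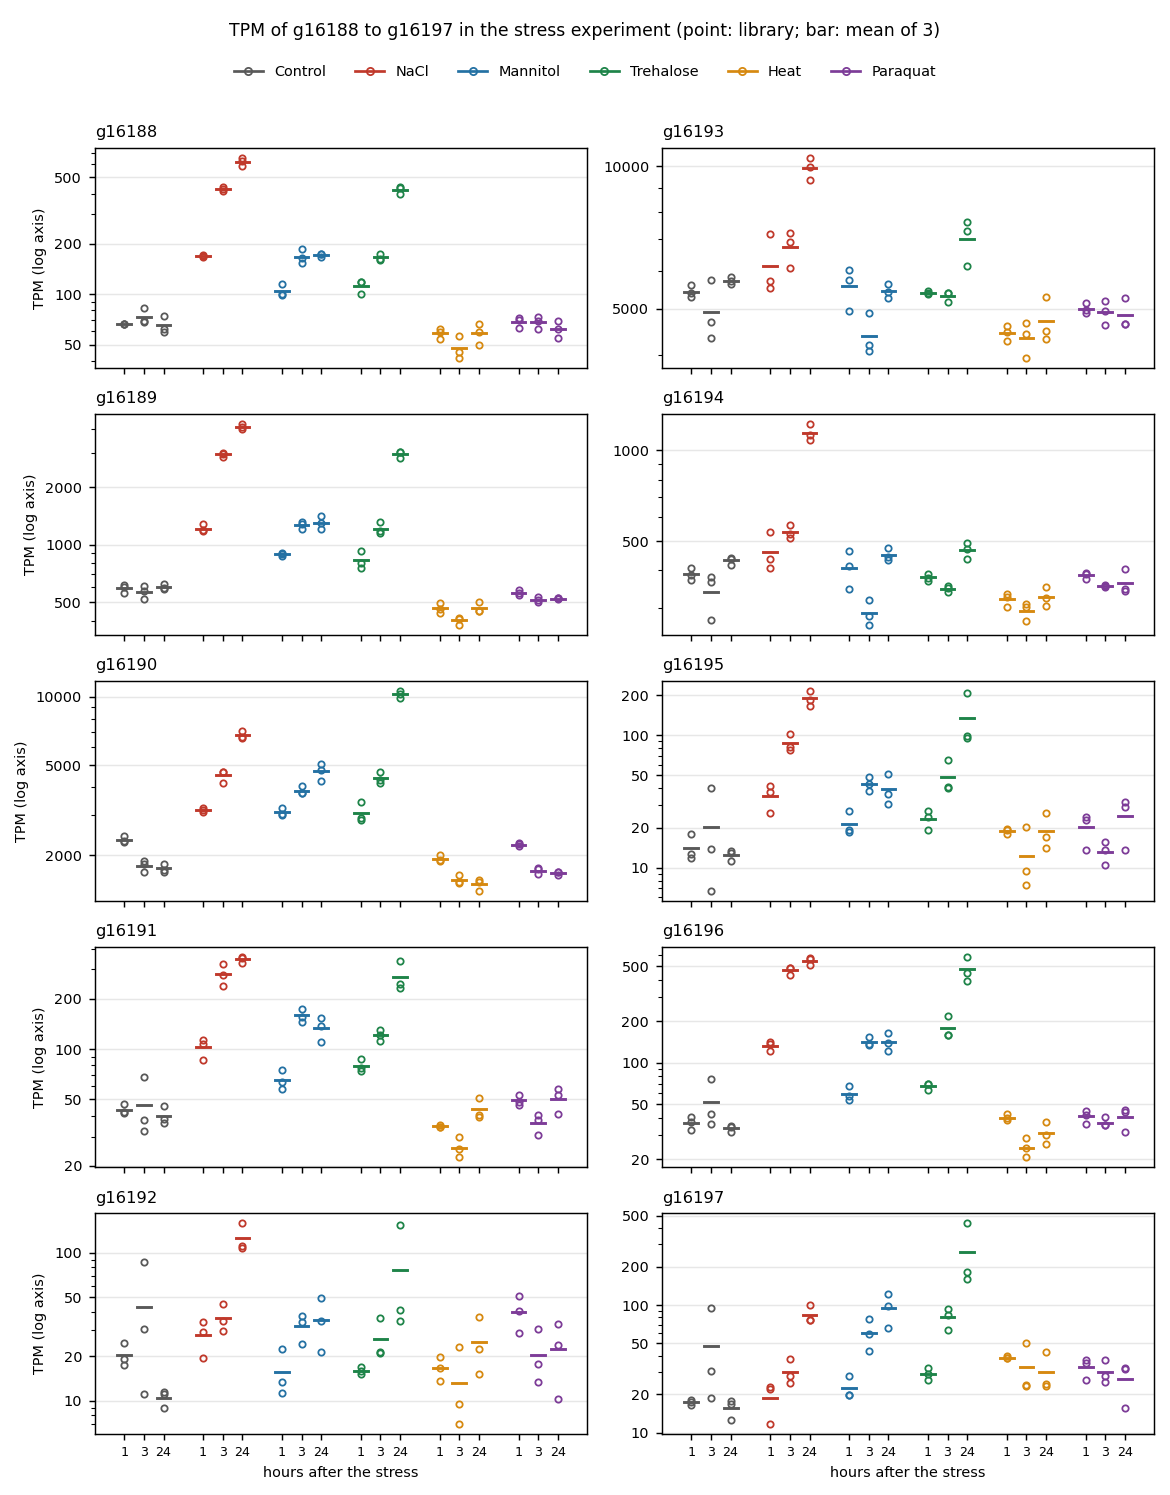
Each panel shows 1 gene, with TPM on a log axis against the hour of collection for Control, heat, paraquat, NaCl, mannitol and trehalose. Points are libraries and bars are means of 3. For g16196 the NaCl 24 h libraries lie between 509.07 and 576.33 TPM and those of Control 24 h between 31.49 and 35.07, while for g16193 they lie between 9334.96 and 10398.4 TPM against 5637.97 and 5829.45.

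Salt, mannitol and trehalose were compared with Control to ask which genes of the island respond to osmotic stress. At NaCl 24 h, 9 of the 10 genes rose and none fell, against 7.75% of all tested genes called up and 11.2% called down. The median log2 change of the 10 genes was 2.93, against -0.17 over all genes tested.

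The gene g16196 measured 509.07, 565.09 and 576.33 TPM at NaCl 24 h and 35.07, 31.49 and 34.39 TPM in Control 24 h. The groups were far apart, and it rose 15.9-fold (log2 change 3.99 ± 0.17 SE, adjusted p = 3e-22). The gene g16195 was at 166.91, 184.32 and 216.73 TPM against 13.45, 12.95 and 11.17 TPM, a rise of 14.0-fold (3.81 ± 0.37, adjusted p = 1.1e-11). The gene g16192 was at 108.19, 111.78 and 158.37 TPM against 8.98, 11.21 and 11.43 TPM, a rise of 10.9-fold with the widest error (3.45 ± 0.49, adjusted p = 1e-07). None of these groups overlapped. Values of g16188 were 652.99, 623.07 and 581.61 TPM against 74.48, 59.4 and 61.6 TPM, and it rose 9.41-fold (3.23 ± 0.10, adjusted p = 1.3e-26). Values of g16191 were 328.27, 355.86 and 349.32 TPM against 38.17, 36.14 and 45.42 TPM, and it rose 8.48-fold (3.08 ± 0.17, adjusted p = 1.2e-18). Both lay well above every Control library.

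The changes of the other genes were smaller. At NaCl 24 h g16189 reached 4248.81, 4112.37 and 4029.95 TPM from 595.76, 620.95 and 589.51 TPM in Control 24 h, 6.85-fold higher (2.78 ± 0.06, adjusted p = 5.3e-32). The gene g16190 reached 7034.46, 6677.3 and 6571.73 TPM, 3.86-fold above Control (1.95 ± 0.06, adjusted p = 5.9e-27). The gene g16194 measured 1220.6, 1128.78 and 1083.01 TPM against 417.66, 436.71 and 441.12 TPM, a rise of 2.64-fold (1.40 ± 0.10, adjusted p = 4.2e-16). The gene not called was g16193. Its 3 NaCl libraries, at 10398.4, 9945.07 and 9334.96 TPM, lay above all Control libraries, with a fold of 1.73 (0.79 ± 0.09, adjusted p = 1.8e-09) that was under the limit. The gene g16197 rose 5.1-fold (2.35 ± 0.38, adjusted p = 9.7e-07), from 16.68, 12.55 and 17.73 TPM to 75.72, 76.26 and 99.17 TPM.

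At Trehalose 24 h, 8 of the 10 genes rose and none fell, against 6.99% of all genes called up and 10.3% called down, with a median log2 change of 2.61 against -0.13 over all genes. The gene g16197 measured 159.11, 180.68 and 436.01 TPM, all above Control 24 h, and rose 14.1-fold (3.82 ± 0.38, adjusted p = 1.7e-11). Replicate 3 stood above the other replicates for g16197 and also for g16192 (34.75, 41.19 and 153.37 TPM) and g16195 (95.07, 98.88 and 209.69 TPM). The gene g16196 rose 13.6-fold (3.76 ± 0.17, adjusted p = 1.3e-21), from 35.07, 31.49 and 34.39 TPM to 391.62, 448.9 and 584.26 TPM. The gene g16190 measured 9884.08, 10634.7 and 10269.9 TPM and rose 5.85-fold (2.55 ± 0.06, adjusted p = 5.3e-31). Its libraries did not overlap those of any other stress group, and their mean was the highest of any member in the stress experiment.

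The rest of the trehalose response at 24 h ran from a 9.38-fold rise of g16195 (3.23 ± 0.37) to a 4.92-fold rise of g16189 (2.3 ± 0.06). The 2 genes that were not called, g16193 and g16194, are consecutive in number. The gene g16193 was at 7607.41, 7298.85 and 6138.69 TPM, 1.22-fold above Control (0.29 ± 0.09, adjusted p = 0.0091). The gene g16194 was at 493.47, 470.61 and 436.57 TPM, 1.08-fold (0.11 ± 0.10, adjusted p = 0.35), and its libraries overlapped those of Control.

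At Mannitol 24 h, 8 of the 10 genes rose and none fell, against 8.46% of all genes called up and 4.76% called down. The rises were smaller, with a median of 1.48 against -0.01 over all genes. The gene g16197 measured 121.03, 98.76 and 66.14 TPM, all above the 12.55 to 17.73 TPM of Control, and rose 5.67-fold (2.50 ± 0.38, adjusted p = 4.5e-07). The gene g16196 measured 163.43, 122.09 and 139.87 TPM and rose 4.10-fold (2.03 ± 0.17, adjusted p = 4.5e-13). The gene g16192, at 49.81, 34.86 and 21.46 TPM, rose 3.00-fold with an SE of 0.49 on a change of 1.59 (adjusted p = 0.007). Without Mannitol 24 h replicate 1 its change was 1.31 and it was not called (adjusted p = 0.0503). The genes g16193 (-0.07 ± 0.09) and g16194 (0.06 ± 0.10) were not called, and their libraries overlapped those of Control.

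After 3 h of NaCl, 6 genes rose and none fell, against 2.85% of all genes called up and 37.1% called down. The gene g16196 went from 36.28, 75.82 and 42.61 TPM in Control 3 h to 429.3, 488.85 and 484.06 TPM, 9.35-fold (3.23 ± 0.17, adjusted p = 9.7e-20). The gene g16188 rose 5.76-fold (2.53 ± 0.10), from 83.04, 68.2 and 68.98 TPM to 411.61, 439.56 and 427.41 TPM. The other rises were 6.25-fold for g16191, 5.24-fold for g16189, 5.2-fold for g16195 and 2.50-fold for g16190. The gene g16197 had no call at 3 h of NaCl, with 24.49, 37.85 and 27.68 TPM within the range of Control 3 h (-0.35 ± 0.38, adjusted p = 0.40). After median ratio scaling, g16192 (1.05), g16193 (1.33) and g16194 (1.54) were called as well, which made 9 genes, against 12.1% of all genes called up and 12.1% called down after scaling, and g16197 stayed without a call at 0.50. The same 6 genes were called without Control 3 h replicate 1, with g16196 at 3.01 and g16195 at 1.82, and without replicate 2, with 3.54 and 3.02.

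At Mannitol 3 h 6 genes rose, against 4.59% of all genes called up, and at Trehalose 3 h 7 genes rose, against 2.37%. The sizes were close to each other for g16188 (1.18 and 1.17) and g16189 (1.17 and 1.10), and g16190 measured 1.10 ± 0.06 and 1.28 ± 0.06. The largest changes among the 10 genes were 1.84 ± 0.17 for g16191 under mannitol and 1.83 ± 0.17 for g16196 under trehalose. The gene g16195 rose under mannitol by 1.39 ± 0.37, with 48.6, 42.83 and 38.27 TPM, but these values overlapped the Control library at 39.97 TPM. The rise of g16197 under trehalose (1.05 ± 0.38, adjusted p = 0.013) came with 84.28, 64.28 and 92.98 TPM, which also overlapped the Control library at 94.23 TPM. Without Control 3 h replicate 1, neither was called, nor was g16195 under trehalose (0.83, 0.56 and 0.96). The trehalose call of g16197 was also lost without Control 3 h replicate 3 (0.897) or Trehalose 3 h replicate 3 (0.938). Without Control 3 h replicate 2, g16197 was called under mannitol too (1.25), as it was after scaling (1.09). In a fit of only the groups compared, g16195 was called under neither (adjusted p = 0.093 and 0.067), nor was g16197 under trehalose (adjusted p = 0.15).

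At 1 h, NaCl was the only osmolyte that gave calls. There 5 genes rose, against 1.74% of all genes called up and 10.4% called down. The gene g16196 rose 3.57-fold (1.84 ± 0.17, adjusted p = 9.6e-12), from 40.2, 32.79 and 37.09 TPM to 136.35, 122.37 and 141.16 TPM. The gene g16188 rose 2.52-fold (1.33 ± 0.10), from 66.66, 66.7 and 66.78 TPM to 168.27, 172.79 and 166.93 TPM. Their groups were well separated, and g16195 (1.23 ± 0.37), g16191 (1.21 ± 0.17) and g16189 (1.03 ± 0.06) rose as well. The call of g16189 was at the fold limit and was lost without Control 1 h replicate 2 or NaCl 1 h replicate 2 (0.99 and 1.00).

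Mannitol 1 h and Trehalose 1 h gave no call by limma, against 0.434% and 0.677% of all genes called up and 3.39% and 2.57% called down. At an adjusted as well as an unadjusted p under 0.05, 5 genes were higher under each, with changes under the fold limit. Under mannitol the values of g16196 were 67.71, 53.68 and 57.92 TPM, above every Control 1 h library, with a change of 0.69 ± 0.17 (adjusted p = 0.0011). Under trehalose they were 63.91, 70.47 and 70.71 TPM, with a change of 0.88 ± 0.17 (adjusted p = 6.5e-05). After median ratio scaling g16188 (1.02) and g16196 (1.07) were called under mannitol, and g16188 (1.01), g16191 (1.12) and g16196 (1.15) under trehalose, against 1.13% and 1.42% of all genes called up after scaling.

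**Figure D4:**
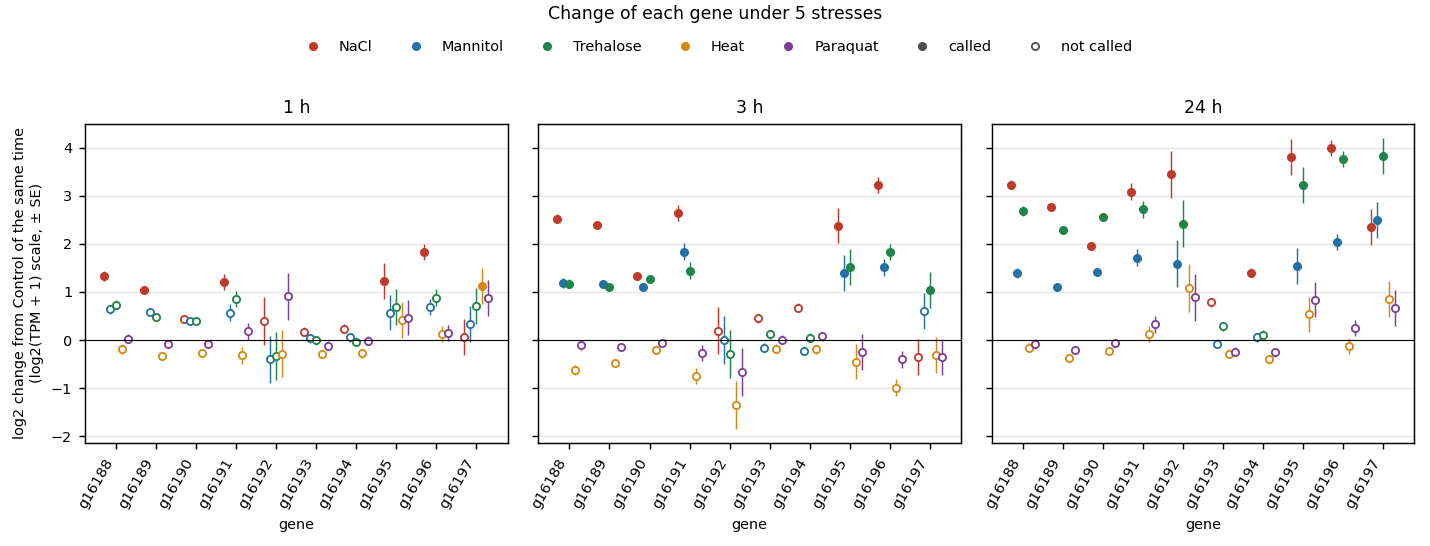
The log2 change of each gene against Control of the same hour, with its SE, is drawn for heat, paraquat, NaCl, mannitol and trehalose at 1, 3 and 24 h, and filled points are called. At 24 h, g16196 lies at 3.99 under NaCl, 3.76 under trehalose and 2.03 under mannitol, while g16193 has no filled point.

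Since the stresses of 1 hour share their Control, they were set against each other directly. NaCl was given at 0.5% and mannitol and trehalose at 600 mM, so kind and dose cannot be told apart where NaCl is compared. At 24 h, 7 genes were higher under NaCl than under mannitol, against 4.62% of all genes. The differences were 2.27 ± 0.37 for g16195, 1.96 ± 0.17 for g16196, 1.86 ± 0.49 for g16192, 1.84 ± 0.10 for g16188, 1.67 ± 0.06 for g16189, 1.37 ± 0.17 for g16191 and 1.34 ± 0.10 for g16194. The gene g16197 differed by -0.15 ± 0.38 and was not called, with 75.72, 76.26 and 99.17 TPM under NaCl and 121.03, 98.76 and 66.14 TPM under mannitol. These libraries overlapped. After scaling g16193 was called as well (1.06).

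Trehalose 24 h lay above Mannitol 24 h for 7 genes too, against 1.27% of all genes. The difference was 1.73 ± 0.17 for g16196, 1.69 ± 0.37 for g16195, 1.32 ± 0.38 for g16197, 1.29 ± 0.10 for g16188, 1.19 ± 0.06 for g16189, 1.13 ± 0.06 for g16190 and 1.01 ± 0.17 for g16191. Without Trehalose 24 h replicate 3, the differences of g16191 (0.84) and g16197 (0.87, adjusted p = 0.088) were not called, nor was g16197 in a fit of only the groups compared (adjusted p = 0.074), and g16191 was not called without Mannitol 24 h replicate 3 (0.875). The g16190 values were 9884.08, 10634.7 and 10269.9 TPM against 5052.81, 4252.38 and 4778.31 TPM, with no overlap. After scaling g16192 was called higher as well (1.02).

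Trehalose 24 h and NaCl 24 h differed in call for 2 genes. The gene g16194 was lower under trehalose by 1.29 ± 0.10 (fold 0.409, adjusted p = 7.5e-15), with 436.57 to 493.47 TPM against 1083.01 to 1220.6 TPM, and 8.34% of all genes were lower. The gene g16197 was higher by 1.47 ± 0.38 (2.78-fold, adjusted p = 0.001), with 159.11 to 436.01 TPM against 75.72 to 99.17 TPM, and 8.78% of all genes were higher. Neither pair of groups overlapped. Differences under the fold limit ran in both directions, with g16190 higher under trehalose (0.60 ± 0.06, adjusted p = 3e-11) and g16188 (-0.55 ± 0.10), g16193 (-0.50 ± 0.09) and g16189 (-0.48 ± 0.06) lower. The gene g16192 measured -1.03 ± 0.49 and was not called (adjusted p = 0.075), but was called without Trehalose 24 h replicate 3 (-1.69) and after scaling (-1.05).

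At 3 h, 4 genes were lower under trehalose than under NaCl, against 3.79% of all genes, and g16197 was higher, against 9.19%. As a count, the single higher gene was near that share. The lower genes were g16196 (-1.40 ± 0.17), g16188 (-1.35 ± 0.10), g16189 (-1.29 ± 0.06) and g16191 (-1.2 ± 0.17). The values of g16197 were 84.28, 64.28 and 92.98 TPM under trehalose and 24.49, 37.85 and 27.68 TPM under NaCl, with no overlap (1.40 ± 0.38, adjusted p = 0.0019). NaCl exceeded mannitol at 3 h for g16196 (1.71), g16188 (1.34) and g16189 (1.22), against 1.92% of all genes, and after scaling 7 genes were called, against 4.53% of all genes, with g16195 (1.37), g16194 (1.28), g16191 (1.19) and g16193 (1.00) added. Without scaling, g16195 (0.99 ± 0.37) and g16197 (-0.96 ± 0.38) lay just under the limit. The first was called without Mannitol 3 h replicate 1 (1.07), NaCl 3 h replicate 1 (1.07) or NaCl 3 h replicate 3 (1.02), and the second without Mannitol 3 h replicate 3 (-1.17) or NaCl 3 h replicate 2 (-1.13). Between trehalose and NaCl at 3 h, g16195 (-0.86 ± 0.37) was called lower without Trehalose 3 h replicate 3 (-1.08) and after scaling (-1.04).

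Between trehalose and mannitol no difference was called at the early hours. At 3 h no member was called between them by limma (0.106% of all genes were called up and 2.35% down). An unadjusted p under 0.05 was reached by 4, and 3 of these, higher under trehalose, kept an adjusted p under 0.05. The difference of g16188 at 3 h was -0.01 ± 0.10 and that of g16189 -0.07 ± 0.06. At 1 h no member was called (0.169% of all genes up, 0.0423% down) and 0 reached an unadjusted p under 0.05. NaCl 1 h lay above Mannitol 1 h for g16196 alone (1.15 ± 0.17, adjusted p = 5.8e-06, against 0.55% of all genes). Trehalose 1 h against NaCl 1 h gave no call by limma (0.868% of all genes down), with 5 genes at an unadjusted p under 0.05, all lower under trehalose. Of these, 4 kept an adjusted p under 0.05 with changes under the fold limit. There g16196 was called after scaling (-1.1) and without NaCl 1 h replicate 2 (-1.01).

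The growth of the responses from 3 to 24 h was tested as a difference of differences. The NaCl response was larger at 24 h for g16192, g16195 and g16197, against 24.7% of all genes, that of mannitol for g16197, against 10.7%, and that of trehalose for 8 genes, all but g16193 and g16194, against 14.6%. The median over all genes was also above 0, at 0.63 for NaCl, 0.44 for mannitol and 0.48 for trehalose, and 0.04, 0.00 and 0.02 after scaling. After scaling the calls were g16192 (2.60) and g16197 (2.04) for NaCl, g16197 (1.41) for mannitol, and g16197 (2.27), g16192 (2.21), g16196 (1.42) and g16195 (1.21) for trehalose. The shares of all genes called larger after scaling were 5.67%, 2.1% and 4.14%. The raw values of g16197 under NaCl were 21.81, 11.8 and 22.63 TPM at 1 h, 24.49, 37.85 and 27.68 TPM at 3 h and 75.72, 76.26 and 99.17 TPM at 24 h, so the separation from Control appeared at the last hour only.

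Heat and paraquat served as stresses that are not osmotic. At Heat 1 h, 1 gene rose, against 1.15% of all genes called up and 0.127% called down. That gene was g16197, at 38.16, 39.68 and 38.53 TPM against 17.4, 18.05 and 16.47 TPM in Control 1 h. The replicates of both groups were tight and the groups far apart, with a fold of 2.17 (1.12 ± 0.38, adjusted p = 0.044). Its SE comes from the spread of g16197 over all stress groups, and the call was lost when any single library of the 2 groups was left out (adjusted p 0.090 to 0.130).

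No member was called at Heat 3 h by limma, against 0.19% of all genes called up and 0.296% called down. At an unadjusted p under 0.05, 6 were lower, and 5 of these kept an adjusted p under 0.05 with changes under the fold limit. The gene g16196 measured 28.31, 20.69 and 23.96 TPM, below the 36.28, 75.82 and 42.61 TPM of Control 3 h, with a fold of 0.503 (-0.99 ± 0.17, adjusted p = 9.9e-05). This lay at the edge of the fold limit, and without Control 3 h replicate 1 both g16196 (-1.2) and g16192 (-2.05) were called lower. Without Heat 3 h replicate 1 the same 2 genes were called (-1.1 and -1.82), and without Control 3 h replicate 3 g16196 was (-1.09). The values of g16192 at Heat 3 h were 23.25, 9.5 and 7.04 TPM and overlapped Control 3 h (-1.35 ± 0.49, adjusted p = 0.14). At Heat 24 h no member was called (1.7% of all genes up, 0.0847% down), and of 6 genes at an unadjusted p under 0.05, 2 were higher and 4 lower. The 4 lower genes kept an adjusted p under 0.05 with changes under the fold limit. Without Heat 24 h replicate 3, g16192 was called higher (1.38).

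Under paraquat no member was called at any hour. At 1 h and 3 h 0 of all 9450 genes were called in either direction (0% up and 0% down). An unadjusted p under 0.05 was reached by 1 and 2 of the 10 genes, and an adjusted one by none. At 24 h, 2.84% of all genes were called up and 0.0635% down, and 4 of the 10 reached an unadjusted p under 0.05. Of these, 1, lower than Control, kept an adjusted p under 0.05. The genes furthest from Control there were g16192, at 10.25, 24.04 and 33.19 TPM (0.89 ± 0.49, adjusted p = 0.14), and g16195, at 13.59, 28.92 and 31.21 TPM (0.84 ± 0.37, adjusted p = 0.076). Replicate 1 was low for both, and without it both were called (1.35 and 1.2).

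In the time course, the first 12 h of trehalose preconditioning raised 8 of the 10 genes, against 6.24% of all genes called up and 6.31% called down. The median change was 1.86 against -0.06 over all genes. The gene g16197 went from 56.06, 34.98 and 40.47 TPM at PreCondTre 0 h to 465.88, 528.29 and 271.46 TPM at 12 h, a 9.25-fold rise (3.21 ± 0.25, adjusted p = 1e-10). The gene g16196 rose 6.39-fold (2.68 ± 0.14), from 99.89, 90.35 and 84.44 TPM to 593.62, 615.24 and 560.14 TPM. The gene g16190 rose 4.02-fold (2.01 ± 0.09, adjusted p = 5.9e-15), from 3799.22, 3898.63 and 3756.57 TPM to 14727.3, 15101.3 and 16243.5 TPM. In none of these did the groups overlap, and the other 5 rises lay between 3.18-fold (g16189) and 3.67-fold (g16191). Without PreCondTre 12 h replicate 3 the same 8 genes were called, with g16197 at 3.5 and g16196 at 2.71.

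As at Trehalose 24 h, g16193 and g16194 were not called. The values of g16193 were 7083.73, 11415.9 and 7265.97 TPM at 0 h and 6484.22, 6621.58 and 9033.51 TPM at 12 h, and those of g16194 were 696.29, 1022.31 and 720.96 TPM and 539.68, 547.42 and 774.51 TPM. Replicate 2 at 0 h and replicate 3 at 12 h were the highest for both genes. Their changes were -0.20 ± 0.13 (adjusted p = 0.23) and -0.39 ± 0.15 (adjusted p = 0.041), with overlapping libraries.

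**Figure D5:**
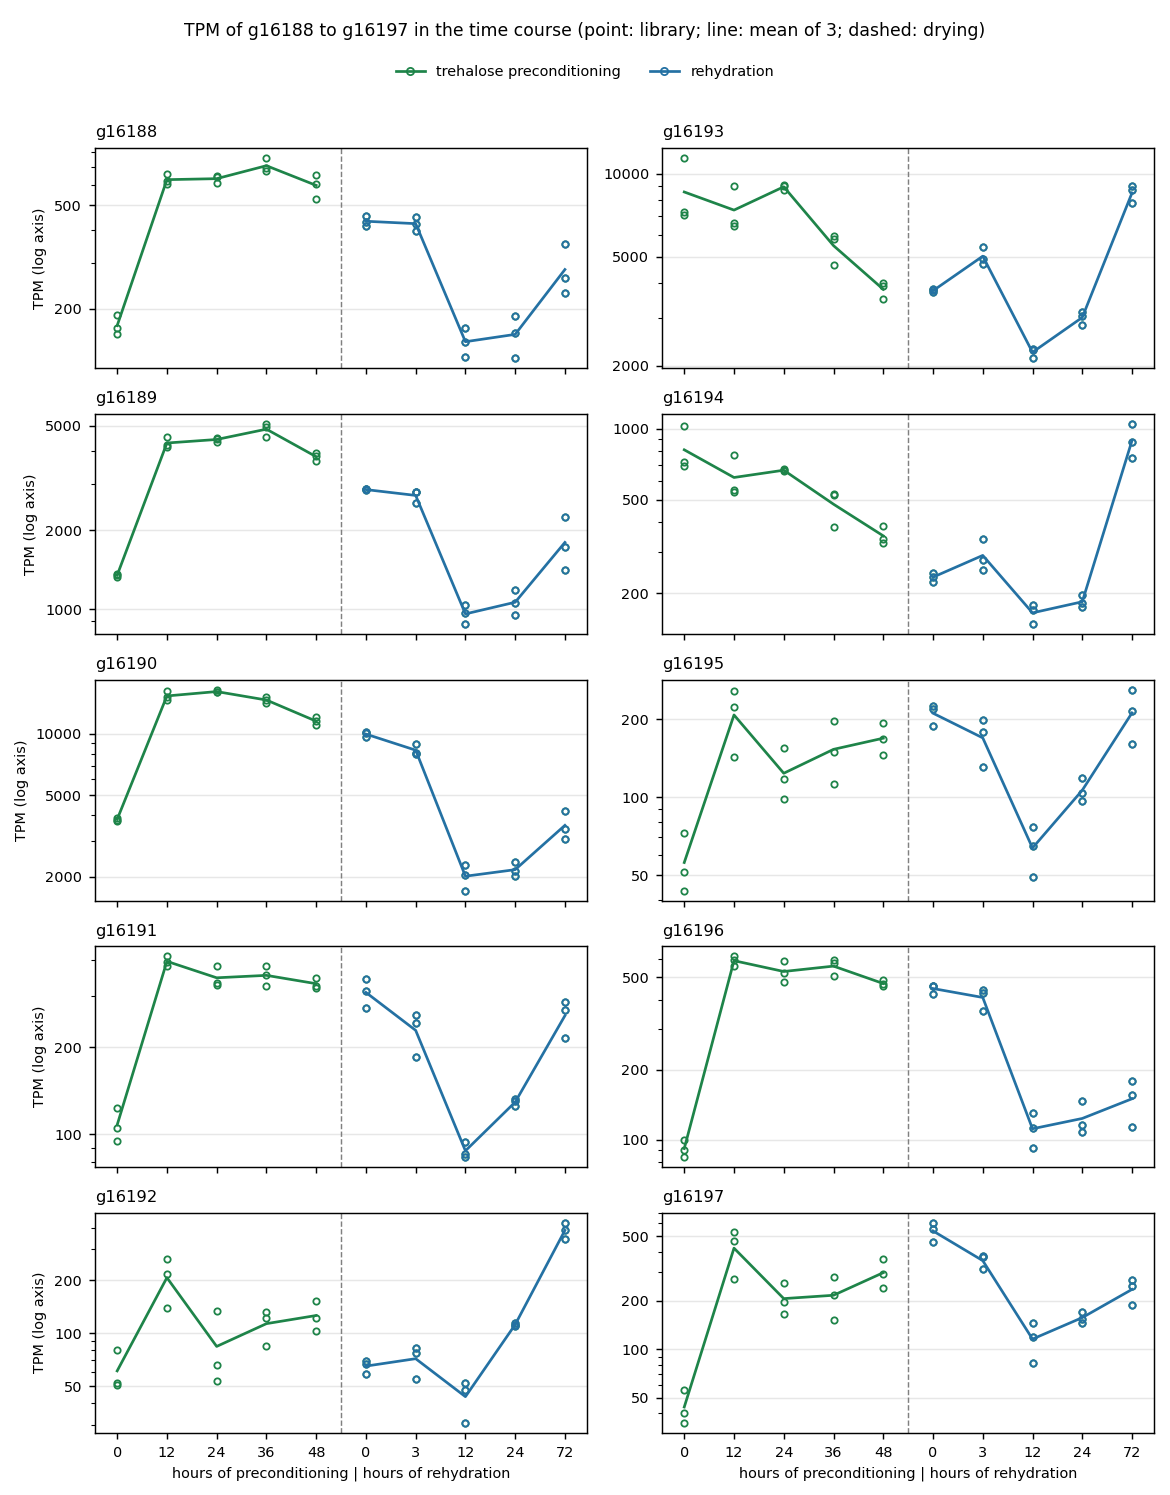
Each panel shows 1 gene, with TPM on a log axis against the 5 preconditioning times and the 5 rehydration times. A dashed line marks drying. Points are libraries and solid lines join the means of 3. For g16190 the mean goes from 16135 TPM at PreCondTre 24 h to 2011 TPM at Rehydration 12 h, and for g16192 the 3 libraries at Rehydration 72 h (342.05 to 427.2 TPM) are the highest of its time course.

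During the remaining preconditioning few members were called. Between 12 and 24 h, g16192 fell, from 218.01, 264.63 and 139.36 TPM to 133.34, 65.6 and 53.39 TPM (fold 0.391, -1.36 ± 0.28, adjusted p = 6.6e-04), and g16197 fell, from 465.88, 528.29 and 271.46 TPM to 255.87, 195.23 and 165.5 TPM (-1.0 ± 0.25, adjusted p = 0.0035). These 2 calls stood against 5.4% of all genes called down and 0.36% called up, the libraries did not overlap in either, and g16197 was not called after scaling (-0.80). Its call was also lost without PreCondTre 12 h replicate 1 (-0.902) or 2 (-0.812), or without PreCondTre 24 h replicate 2 (-0.976) or 3 (-0.858). That of g16192 was lost when replicate 2 of every group was left out (-1.04, adjusted p = 0.051) and with its most abundant transcript in place of the sum (-0.77). The gene g16190 reached its highest level here, at 15988.3, 16373.1 and 16043.2 TPM at 24 h. The highest values of g16188, at 759.72, 693.65 and 675.57 TPM, came at 36 h. From 24 to 36 h and from 36 to 48 h no member was called by limma (0.148% and 4.24% of all genes up, 0.0635% and 0.0423% down). At an unadjusted p under 0.05, 2 and 4 genes were lower, and all kept an adjusted p under 0.05 with changes under the fold limit. Among these, g16193 was lower at both steps, by 0.72 ± 0.13 (adjusted p = 0.0011) and by 0.52 ± 0.13 (adjusted p = 0.01), and its values at 48 h were 4006.63, 3499.62 and 3896.14 TPM.

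Across drying, from PreCondTre 48 h to Rehydration 0 h, no member was called by limma, against 3.87% of all genes called up and 4.36% called down. An unadjusted p under 0.05 was reached by 6 genes, of which 5 kept an adjusted p under 0.05. Of these 5, 1 was higher and 4 were lower, all under the fold limit. The gene g16197 measured 238.68, 360.32 and 293.24 TPM before drying and 458.04, 551.84 and 607.7 TPM at 0 h, its highest mean in the time course. The libraries did not overlap, and the change of 0.87 ± 0.25 (1.82-fold, adjusted p = 0.0064) was under the fold limit. Without PreCondTre 48 h replicate 2 it was called (1.02). The gene g16192 went the other way, from 103.57, 153.55 and 121.43 TPM to 58.8, 69.03 and 67.1 TPM (-0.93 ± 0.28, adjusted p = 0.008), and was called without PreCondTre 48 h replicate 1 (-1.06). Over the next 3 h no member was called (7.96% of all genes up, 0.614% down). At an unadjusted as well as an adjusted p under 0.05, 1 gene was higher and 3 were lower, with changes under the fold limit.

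Between 3 and 12 h of rehydration 8 of the 10 genes fell and none rose, while 2.42% of all genes were called down and 10.9% up. The median change was -1.45, against 0.29 over all genes. The gene g16190 went from 8939.6, 8004 and 8051.38 TPM to 1710.04, 2283.97 and 2040.16 TPM, a fold of 0.240 (-2.06 ± 0.09, adjusted p = 1.2e-14). The gene g16196 went from 440.74, 357.69 and 430.01 TPM to 92.03, 112.12 and 130.12 TPM, a fold of 0.272 (-1.88 ± 0.14, adjusted p = 6.3e-11). The libraries at 12 h lay below all of those at 3 h for these and for each of the other genes. The share of all tested genes for which this held was not counted. The gene g16197 fell by 1.64 ± 0.25, g16188 by 1.51 ± 0.13, g16189 by 1.5 ± 0.10, g16195 by 1.40 ± 0.24, g16191 by 1.36 ± 0.12 and g16193 by 1.16 ± 0.13.

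The remaining 2 genes at this step were g16194, at 341.53, 250.24 and 277.9 TPM and then 147.66, 178.59 and 170.01 TPM (-0.80 ± 0.15, adjusted p = 1.3e-04), and g16192, at 77.67, 54.84 and 82.35 TPM and then 47.79, 30.86 and 51.88 TPM (-0.72 ± 0.28, adjusted p = 0.032). Both were under the fold limit, and both were called after scaling (-1.12 and -1.03), which made all 10, against 4.32% of all genes called down after scaling. Rehydration 12 h had the lowest mean of the time course for g16188, g16189, g16190, g16191, g16192, g16193 and g16194. Its libraries overlapped those of the next lowest group for g16188, g16189, g16190 and g16194 (Rehydration 24 h) and g16192 (PreCondTre 0 h). For g16195, g16196 and g16197 PreCondTre 0 h was lower, though the libraries of these 2 groups overlapped for g16195 and g16196.

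Recovery after 12 h was uneven. Between 12 and 24 h only g16192 rose, from 47.79, 30.86 and 51.88 TPM to 114.97, 111.17 and 109.87 TPM (2.60-fold, 1.38 ± 0.28, adjusted p = 0.0011), against 1.14% of all genes. Between 24 and 72 h, g16194, g16192 and g16193 rose, against 2.01% of all genes called up and 3.77% called down. The gene g16194 went from 181.26, 196.65 and 175.04 TPM to 1044.88, 750.74 and 874.92 TPM, 4.77-fold (2.25 ± 0.15, adjusted p = 6.3e-11). The gene g16192 reached 387.78, 342.05 and 427.2 TPM, 3.41-fold above 24 h (1.77 ± 0.28, adjusted p = 1.9e-05). The gene g16193 went from 2821.06, 3046.5 and 3140.38 TPM to 9058.61, 7803.62 and 8703.74 TPM, 2.83-fold (1.5 ± 0.13, adjusted p = 4.5e-09). In all 3 the groups were well apart. Changes of the other 7 genes lay between 0.27 ± 0.14 (g16196) and 0.98 ± 0.12 (g16191), and after scaling g16191 (1.15) and g16195 (1.14) were called too. Both were also called without Rehydration 72 h replicate 2 (1.1 and 1.15), and g16195 without Rehydration 24 h replicate 1 (1.05).

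Whether the levels were back where they began was asked by setting Rehydration 72 h against PreCondTre 0 h. Here 4 genes were higher and none lower, against 22.3% of all genes called up and 3.37% called down. The gene g16192 was 6.35-fold higher (2.67 ± 0.28, adjusted p = 9.3e-09), with 387.78, 342.05 and 427.2 TPM against 80.36, 52.09 and 50.59 TPM. The gene g16197 was 5.29-fold higher (2.40 ± 0.25, adjusted p = 9.5e-09), with 267.5, 188.72 and 246.87 TPM against 56.06, 34.98 and 40.47 TPM. The gene g16195 was 3.75-fold higher (1.91 ± 0.24, adjusted p = 2.5e-07), and g16191 2.37-fold (1.24 ± 0.12). None of these groups overlapped. The median of all genes was 0.54 in this comparison and 0.03 after scaling, and after scaling g16191 was not called (0.66) while g16192 (2.09), g16197 (1.83) and g16195 (1.33) were.

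Of the other genes at 72 h, the change was -0.11 ± 0.09 for g16190, 0.02 ± 0.13 for g16193 and 0.14 ± 0.15 for g16194, with overlapping libraries in each. These changes became -0.69, -0.56 and -0.44 after scaling and were not called. Those of g16188 (0.69), g16196 (0.68) and g16189 (0.39) became 0.11, 0.11 and -0.19, so which genes lay nearest their starting values depended on the scaling.

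The pattern of each gene was described by its Pearson correlation with every other tested gene over the 28 group means of log2(TPM + 1), each centred within its experiment. These points share libraries, paralogous genes share reads, and the values are a description only. The gene most like g16188 was g16189 (r = 0.996), and g16188 was also the most like g16196 (0.985) and g16191 (0.973). For g16195 it was g16191 (0.941). The genes g16193 and g16194 were most like each other (0.955), and the most like g16193 outside the 10 genes was g10026 (0.87). For g16190 the gene was g16187 of Block 1 (0.971), for g16192 it was g16178 of Block 1 (0.839), and for g16197 it was g16198, the first gene of Block 2 (0.95). The correlation of g16197 with g16193 was 0.09 and with g16194 0.03.

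Ratios of TPM show how tightly pairs moved. The ratio of g16189 to g16188 ran only from 6.35 at Rehydration 72 h to 9.24 in Control 24 h over the 28 group means, with a median of 7.33. The ratio of g16193 to g16194 ran from 8.65 at NaCl 24 h to 17.3 at Rehydration 3 h, a range of 2.00-fold. By contrast the ratio of g16193 to g16190 ran from 0.329 at PreCondTre 48 h to 3.27 in Control 24 h, a 9.93-fold range, and that of g16197 to g16192 from 0.608 at Rehydration 72 h to 8.30 at Rehydration 0 h, a 13.7-fold range. In the last 2 pairs the order of the genes changed between groups, and in the first 2 it did not. With median ratios of 7.33 and 13.6, the order in those first 2 pairs had little room to change. The ratio of g16196 to g16188 ran from 0.512 to 1.13, so its order changed over a range of only 2.20-fold. That of g16191 to g16188 ran from 0.499 to 0.947, a 1.90-fold range.

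The other genes of the island were counted in the same comparisons, as a description. Of the 18 tested genes in the rest of Block 1, 18 rose at NaCl 24 h (median 3.81), 17 at Trehalose 24 h (2.59), 11 at Mannitol 24 h (1.26) and 18 at PreCondTre 12 h (3.08), where 7.75%, 6.99%, 8.46% and 6.24% of all genes were called up. Of the 3 genes of Block 2, 3 rose at NaCl 24 h (2.12) and 3 at Trehalose 24 h (4.03). Blocks 3 and 4 had 4 genes each, of which 2 and 2 rose at NaCl 24 h and 1 and 4 at Trehalose 24 h. The 1 tested Lea gene outside ARId1 rose in both. At the fall from 3 to 12 h of rehydration, 9 genes in the rest of Block 1 fell and 1 rose (median -0.99), 3 of Block 2, 1 of Block 3, 2 of Block 4 and the Lea gene outside the island fell, where 2.42% of all genes were called down and 10.9% up. At Rehydration 72 h against PreCondTre 0 h, 15 of 18 genes in the rest of Block 1 were higher (median 2.78), where the 10 genes had 4 and a median of 0.69 and 22.3% of all genes were higher. At Heat 3 h, 4 genes in the rest of Block 1 were lower, against 0.296% of all genes.

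The table splits the 10 genes into many transcripts. There were 122 transcripts of g16189, 66 of g16190, 53 of g16196, 20 of g16188, 15 of g16191, 14 of g16197, 8 of g16195, 2 each of g16192 and g16193 and 1 of g16194, and 68 of them had a mean above 1 TPM. Reads that fit several transcripts or paralogs were shared among them by the estimation, so single transcripts are less certain than gene sums. Of the 68, the numbers that rose at 24 h were 36 under NaCl (7.1% of all tested transcripts), 33 under trehalose (7.63%) and 19 under mannitol (6.66%). None was called under heat or paraquat at any hour. In those comparisons 0.0264% to 0.678% of all tested transcripts were called up and 0.044% to 0.251% down. With shares this low, the absence of calls does not set the 68 apart. At PreCondTre 12 h 23 rose (5.94%), and between 3 and 12 h of rehydration 23 fell (3.92%).

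Both transcripts of g16193 were tested. Both fell between 3 and 12 h of rehydration and both rose between 24 and 72 h, while at NaCl 24 h only 1 of the 2 was called. The difference between the transcripts was not tested. The transcript g16193.t1 measured 1048.69, 1092.08 and 1044.71 TPM in Control 24 h and 2674.29, 2580.84 and 2425.94 TPM at NaCl 24 h, and it rose (1.27 ± 0.14, adjusted p = 8.8e-10) where the gene's sum was not called. Its share of the gene was 18.5% in Control 24 h and 25.9% at NaCl 24 h. In the time course the share was 16.6% at PreCondTre 12 h, 39.6% at PreCondTre 48 h, 38.2% at Rehydration 0 h and 22.7% at Rehydration 72 h.

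For g16192, the transcript g16192.t1 measured 0.42, 2.59 and 0.1 TPM in Control 24 h and 43.03, 47.04 and 79.15 TPM at NaCl 24 h, a change of 4.96 ± 1.15 (adjusted p = 8.5e-04). Its share of the gene was 4.68, 23.1 and 0.875% in the Control libraries and 39.8, 42.1 and 50.0% in those of NaCl. The groups did not overlap, and the other transcript, g16192.t2, rose by 2.76 ± 0.32. The transcript g16195.t1 made up 48.1% of its gene in Control 24 h and 76.3% at NaCl 24 h.

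Across drying, where no gene sum was called, 3 of the 68 transcripts rose and 1 fell, against 6.26% of all tested transcripts called up and 6.16% called down. Neither count was above the share of all tested transcripts. The transcript g16196.t39 measured 34.11, 49.79 and 36.58 TPM at PreCondTre 48 h (8.54% of g16196) and 92.29, 108.26 and 115.1 TPM at Rehydration 0 h (23.5%), with no overlap (1.38 ± 0.26, adjusted p = 4.4e-04). The transcript g16197.t16 rose from 6.15, 7.9 and 3.92 TPM to 27.43, 76.84 and 116.62 TPM (3.23 ± 0.93, adjusted p = 0.015), and g16197.t17 rose by 2.06 ± 0.61 (adjusted p = 0.017). The transcript that fell was g16197.t13, from 23.07, 20.15 and 23.47 TPM to 0.32, 0 and 2.83 TPM (-3.76 ± 0.66, adjusted p = 2.6e-04). How the estimation divides shared reads between these transcripts was not tested.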

How the data were processed

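Total RNA of Pv11 cells was sequenced in 84 libraries. The authors mapped reads with Bowtie2 (v2.3.5.1) to the coding sequences of their gene set and estimated transcript abundance with RSEM (v1.2.30) through Trinity (v2.9.1), and deposited 1 table of TPM per transcript, rounded to 2 decimals. RSEM divides reads that fit several transcripts among them. Counts were not used here, so depth is unknown and no counting interval or detection floor is given.

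The transcripts of a gene were summed, and genes with a mean above 1 TPM were fitted as log2(TPM + 1) in limma 3.58.1 (R 4.3.3) with a variance trend and 1 coefficient per group, in 1 fit for the 54 stress and 1 for the 30 time-course libraries. All adjusted p-values are limma's, over all genes or all transcripts tested. An exact permutation test of 3 against 3 libraries cannot go below p = 0.1. The replicates are biological by the study's methods, with no cultures named. Tables and plots were made in Python 3.11.15 with matplotlib 3.10.9, and the fits were tested on simulated data.

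Named were all 10 genes and, for each, the most correlated other gene. Members, lists and tests were chosen with earlier results of these data known. Alternatives were no trend, all genes above 0, a pseudocount of 0.1, the compared groups only, median ratio scaling (factors 0.592 to 1.71), each replicate number or library left out, replicate number as a block, and the most abundant transcript in place of the sum.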

Additional observations from a re-analysis of the deposited data

Results flagged for a closer look

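The response to an osmolyte (its log2 difference from Control of the same hour) was larger at 24 h than at 3 h in 12 cases by the limma test of the difference itself. For NaCl the responses differed by 3.25 for g16192 (adjusted p = 2e-04), 2.70 for g16197 (adjusted p = 6.7e-05) and 1.43 for g16195 (adjusted p = 0.02). For mannitol the difference was 1.90 for g16197 (adjusted p = 0.0041). For trehalose the differences were 2.77 for g16197, 2.71 for g16192, 1.94 for g16196, 1.71 for g16195, 1.51 for g16188, 1.27 for g16191, 1.27 for g16190 and 1.2 for g16189. Of all genes, 24.7% were called larger at 24 h for NaCl, 10.7% for mannitol and 14.6% for trehalose. After median ratio scaling the NaCl call of g16195 (0.77) was lost. So were the trehalose calls of g16188 (0.99), g16191 (0.76), g16190 (0.74) and g16189 (0.67).

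Every one of these differences between hours rests on Control 3 h, whose replicates 1 and 2 lay furthest apart for g16192, g16195 and g16197. Without Control 3 h replicate 2, the NaCl difference of g16195 (0.79) and the trehalose differences of g16191 (0.96) and g16195 (1.06) were not called. Without Control 3 h replicate 1, the mannitol difference of g16192 was called at 2.29, as it was without Mannitol 24 h replicate 3 (1.89). Each library was compared with its other replicates over all tested genes, as given above, but no formal outlier test was run within groups of 3.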

How the results depend on the processing

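Of 113 calls of a gene in a comparison, 80 held in every alternative, 33 were lost in at least 1, and 0 reversed. The counts below are of the 10 genes called.

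Median ratio scaling gave 2 calls in place of 0 at Mannitol 1 h, 3 in place of 0 at Trehalose 1 h, 1 in place of 0 for trehalose against NaCl at 1 h, 7 in place of 3 for NaCl against mannitol at 3 h, 1 in place of 2 from PreCondTre 12 to 24 h, 5 in place of 3 from 24 to 72 h of rehydration, and 4 in place of 8 for the growth of the trehalose response. The most abundant transcript in place of the sum gave 3 for 5 at NaCl 1 h, 1 for 0 at Heat 24 h and at Paraquat 24 h, and 2 for 5 for trehalose against NaCl at 3 h. The single call at Heat 1 h went to 0 with all genes above 0 tested (adjusted p = 0.076), with the most abundant transcript and with the replicate block (adjusted p = 0.053), and a pseudocount of 0.1 gave 1 for 0 at Heat 3 h. The fit of only the groups compared lost 4 calls, g16195 at Mannitol 3 h and Trehalose 3 h and g16197 at Trehalose 3 h and for trehalose against mannitol at 24 h. The cause of these shifts was not tested.

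With libraries or replicate numbers left out, the count was 0 at Heat 1 h and ran from 0 to 4 at Heat 3 h, 0 to 1 at Heat 24 h, 0 to 2 at Paraquat 24 h, 0 to 2 from PreCondTre 12 to 24 h, 0 to 1 across drying, 0 to 1 from Rehydration 12 to 24 h, 3 to 5 from 24 to 72 h, 0 to 1 for trehalose against NaCl at 1 h, 4 to 8 for trehalose against mannitol at 24 h, and for the growth of the response 2 to 4 (NaCl), 0 to 2 (mannitol) and 5 to 8 (trehalose).

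Replicate numbers did not pair the samples: all 3 correlations of same-numbered deviations were above 0.1 in 2 of 24 comparisons, and every sample correlated best with its own number in 2 of 24. The replicate block lost 1 call, that of g16197 at Heat 1 h. TPM keeps no depth, so the precision of the low genes (g16192, g16195 and g16197) is known only from their replicates.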
